A study of Homo sapiens with 6 samples.

Results

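YAP1 and WWTR1 (the gene of TAZ) encode transcriptional coactivators, and TEAD1 and TEAD4 encode DNA-binding proteins that bring them to genes. Together with 6 genes widely used as readouts of their activity (CTGF, CYR61, ANKRD1, AMOTL2, AXL and LATS2), these 4 factor genes formed a named set of 10 of the 58735 genes in the count table. The genes were taken by symbol, with CTGF and CYR61 being the older symbols of CCN2 and CCN1. The rule itself uses no measured value. These genes, and the lists set beside them below, were nevertheless chosen with earlier results of these data known. After the filter on low counts, 9 of the 10 were among the 14338 genes tested, and ANKRD1 was not.

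The Hippo pathway is a kinase cascade in which the STK3 and STK4 kinases, with the scaffold SAV1, activate the LATS1 and LATS2 kinases, which phosphorylate YAP and TAZ and hold them out of the nucleus. Unphosphorylated YAP and TAZ enter the nucleus, bind TEAD proteins and raise transcription of genes for matrix signalling, the cytoskeleton and growth. Several of these targets, among them LATS2 and AMOTL2, encode proteins that restrain YAP and TAZ, so the pathway feeds back on itself. Mesenchymal breast cancer lines are known for active YAP and TAZ.

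RNA-seq was carried out on BT549, a long-established breast cancer line of the basal-like type. The vehicle group (DMSO, 3 libraries) and the group given AS1842856, a small molecule that binds the forkhead factor FOXO1 (3 libraries), were both collected after 48 h. The labels give the dose as 200 nM, while the methods of the study state another dose, and which applies to these libraries is not known. Both groups share 1 unmodified line and the replicate letters A, B and C, which the methods of the study describe as biological replicates without saying how they were separated.

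Library totals ran from 15289500 to 22981832 counts, and the TMM factors from edgeR ran from 0.995 to 1.01. The 5 mesenchymal markers were well expressed, with VIM at 1322 ± 52.0 CPM in DMSO (SD, n = 3) and 1046 ± 18.3 CPM with AS1842856. CDH2 had 112 and 98.0 CPM, ZEB1 69.7 and 98.5, SPARC 1196 and 864, and CD44 898 and 655, as DMSO and AS1842856 means. Of the 6 luminal or epithelial markers, ESR1, PGR, CDH1 and EPCAM had between 0 and 8 counts in every library, and FOXA1 had 10 to 32. GATA3 was present, at 50.9 CPM in DMSO and 61.7 CPM with AS1842856. Of the 4 blood and endothelial markers, CD3E and CDH5 had 0 counts in all 6 libraries, PECAM1 had 1 count in 1 library, and PTPRC had a mean of 1.15 CPM in DMSO and 3.16 CPM with AS1842856, and its part in the results was not tested. These markers thus showed the pattern of a mesenchymal, hormone receptor negative line, apart from GATA3.

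TEAD proteins bind sites with the core letters GGAATG, and promoter sequence was read for the 10 genes to show where these letters lie. RefSeq windows (GRCh38.p14) of 250 bases before and 50 bases after a start were at hand for 7 of the 10 genes, in 10 windows, since AMOTL2, AXL and WWTR1 have 2 starts each. CYR61, TEAD1 and TEAD4 had none. Searched on both strands, GGAATG stood in 6 of the 10 windows, each from a different gene, against 14.0% of all 34961 windows of that length. CTGF held it 3 times and ANKRD1 2 times, and 1.37% of all windows held it 2 or more times. Because 6 of the 10 genes were named as known targets of these factors, setting these shares side by side is no test of enrichment. The CTGF promoter is printed whole because CTGF had the largest fall of the 10 genes. The YAP1 promoter is printed because the coactivator gene itself carries the letters. AXL also fell by more than 1 on the log2 scale, and its second start is printed because that window holds the letters. The first AXL start, 20 bases from the GENCODE start, lacks them, and which start BT549 uses was not tested. Each printed sequence is the 250 bases before the start, 5′ to 3′ on the strand of the gene. Capitals mark GGAATG or, on the other strand, CATTCC. The printed sequences lie at chr6:131951373-131951622 (minus strand), chr11:102110197-102110446 (plus strand) and chr19:41226505-41226754 (plus strand).
CTGF: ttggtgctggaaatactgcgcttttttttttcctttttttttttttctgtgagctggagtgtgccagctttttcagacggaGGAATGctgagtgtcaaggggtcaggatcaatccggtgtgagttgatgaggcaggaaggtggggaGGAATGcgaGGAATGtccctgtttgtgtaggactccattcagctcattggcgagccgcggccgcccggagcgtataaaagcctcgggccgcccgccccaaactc
YAP1: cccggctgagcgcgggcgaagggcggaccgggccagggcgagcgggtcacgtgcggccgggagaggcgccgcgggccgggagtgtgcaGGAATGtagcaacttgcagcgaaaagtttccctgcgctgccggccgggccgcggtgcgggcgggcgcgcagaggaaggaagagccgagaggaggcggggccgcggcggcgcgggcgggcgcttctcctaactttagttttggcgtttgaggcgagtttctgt
AXL: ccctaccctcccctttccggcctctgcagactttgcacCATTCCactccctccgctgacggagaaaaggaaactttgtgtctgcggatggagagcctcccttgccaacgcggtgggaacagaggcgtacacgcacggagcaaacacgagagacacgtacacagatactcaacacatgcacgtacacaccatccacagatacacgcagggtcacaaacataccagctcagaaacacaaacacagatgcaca

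In CTGF the letters began 169, 104 and 95 bases before the start, so that the last pair lay 9 bases apart, in the same orientation as the gene. YAP1 held them 162 bases before its start, and AXL, on the other strand, 212 bases before its second start, which lies 7552 bases inside the GENCODE gene. The single sites of the remaining genes are shown with 10 bases on either side. Those of ANKRD1, the only target with no detectable transcript, began 220 and 128 bases before the RefSeq start. That of AMOTL2 began 69 bases before its second start, on the other strand. That of LATS2 began at base 10 from the RefSeq start. The positions of these sites are chr10:90921292-90921317, chr10:90921200-90921225, chr3:134374501-134374526 and chr13:21061562-21061587, all on genes of the minus strand. The ANKRD1 start and the second AMOTL2 start lie 189 and 1032 bases inside the GENCODE genes. The ANKRD1 near site and the AMOTL2 site lie in untranslated exon sequence of GENCODE, and the ANKRD1 far site does not. The LATS2 start lies 39 bases before the GENCODE gene, so its site lies outside that gene.
ANKRD1 far site: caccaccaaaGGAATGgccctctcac
ANKRD1 near site: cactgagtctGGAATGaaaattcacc
AMOTL2 site: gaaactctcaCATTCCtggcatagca
LATS2 site: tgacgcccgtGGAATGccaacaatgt

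Neither WWTR1 window nor the first windows of AMOTL2 and AXL held GGAATG. The AP-1 letters TGANTCA, found in 7.68% of all windows, stood once, in ANKRD1, 195 bases before the start. The forkhead letters GTAAACA, found in 3.42% of all windows, stood once in the first WWTR1 window, 53 bases before a start that lies 33441 bases inside the GENCODE gene (the second lies 78689 bases inside it), and once at base 10 after the second AXL start. The CArG box bound by SRF, found in 1.30% of all windows, stood in none of the 10. No match of one kind overlapped a match of another. A match describes the letters in these windows and does not show binding.

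**Figure D1:**
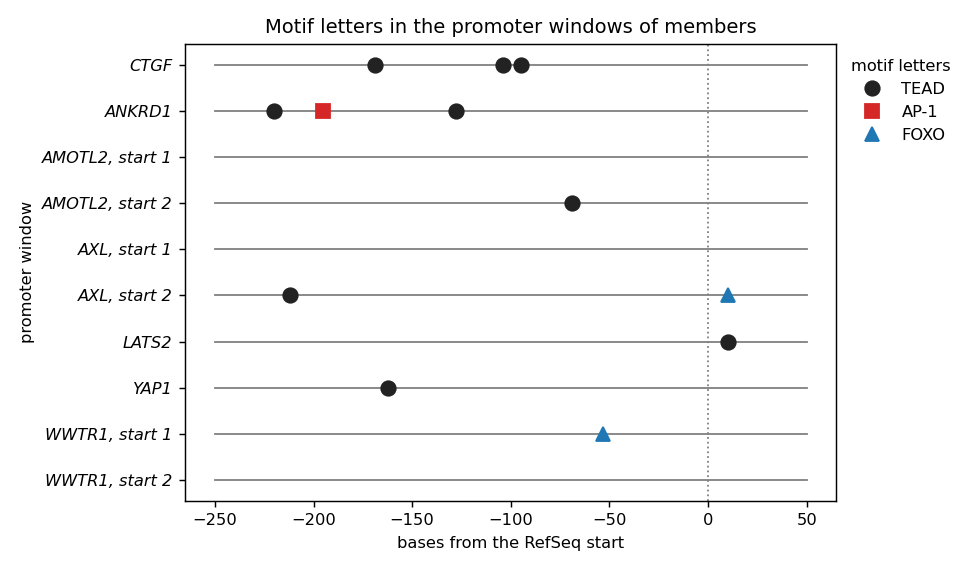
Positions of motif letters in the 10 promoter windows of the 7 genes with a RefSeq window, in bases from the start (x axis, 0 is the start), one line per window. GGAATG (black circles, marked TEAD) stands in 6 windows, 3 times in CTGF and 2 times in ANKRD1, the AP-1 letters (red square) stand in ANKRD1 and the forkhead letters (blue triangles) in WWTR1 and AXL.

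The comparison of AS1842856 with DMSO asked how the targets and the factors respond to a compound that binds FOXO1. All 5 detected targets were lower with AS1842856, and 3 of the 4 factor genes were slightly higher. CTGF, CYR61 and AXL fell to 18.8%, 21.2% and 31.9% of their DMSO level, whereas no factor gene moved by more than 1.17-fold. These are levels in bulk RNA, in which fewer cells of a kind and less RNA per cell cannot be told apart. The 5 targets had a median log2 fold change of -1.65 and the 4 factors one of 0.17, beside 0.003 over all genes tested. At an adjusted p of 0.05 (edgeR quasi-likelihood test, adjusted by Benjamini and Hochberg's method over all 14338 genes), all 9 tested genes of the set were called, 3 as higher and 6 as lower. The drug moved much of the transcriptome: 56.0% of all genes tested were called, 27.6% as higher and 28.4% as lower, so a call by itself is common here, and the sizes say more than the count. Lower calls of at least 1 on the log2 scale were rarer, 6.33% of the genes tested, and 3 of the 9 genes were among them. The 2 groups of libraries did not overlap for any of the 9, as for 59.9% of all genes tested. Each of the 9 had at least 43.0 CPM in every library of both groups, so none passed the filter through 1 group alone.

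CTGF (ENSG00000118523, chr6:131948176-131951373, minus strand), connective tissue growth factor, encodes a secreted matricellular protein and is the most used YAP readout. It had 461, 453 and 417 CPM in DMSO libraries A, B and C, and 87.8, 81.6 and 80.8 CPM in AS1842856 libraries A, B and C. The lowest DMSO library stood far above the highest treated one. The log2 fold change was -2.41 (SE 0.04), a 5.32-fold lower level (edgeR, adjusted p = 4.57e-141), which placed CTGF 127th from the most lowered among the 14338 genes. CYR61 (ENSG00000142871, chr1:85580761-85583962, plus strand), the nearest relative of CTGF, encodes another secreted protein that signals through integrins. Its levels were 986, 883 and 870 CPM in DMSO and 196, 189 and 195 CPM with AS1842856. DMSO library A was the highest, and the groups did not overlap. CYR61 was 4.72-fold lower (log2 fold change -2.24, SE 0.04, edgeR adjusted p = 2.72e-121), the 152nd most lowered gene.

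AXL (ENSG00000167601, chr19:41219203-41261766, plus strand) encodes a receptor tyrosine kinase associated with mesenchymal cells and drug resistance. It stood at 430, 420 and 419 CPM in DMSO and at 135, 140 and 128 CPM with AS1842856. The libraries of each group lay close together and the groups were far apart. AXL was 3.14-fold lower, with a log2 fold change of -1.65 (SE 0.04, edgeR adjusted p = 1.29e-115), the 340th most lowered gene.

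LATS2 and AMOTL2, the targets of the set whose products restrain the pathway, moved less than CTGF, CYR61 and AXL. LATS2 (ENSG00000150457, chr13:20973032-21061547, minus strand), the kinase that phosphorylates YAP and TAZ, had 61.4, 62.5 and 61.8 CPM in DMSO and 45.2, 43.0 and 44.6 CPM with AS1842856. AMOTL2 (ENSG00000114019, chr3:134355874-134375479, minus strand), an angiomotin that tethers YAP in the cytoplasm, had 251, 250 and 242 CPM in DMSO and 190, 189 and 197 CPM with AS1842856. In neither gene did a treated library reach the lowest DMSO library. LATS2 was 1.40-fold lower (log2 fold change -0.48, SE 0.06, edgeR adjusted p = 9.9e-15) and AMOTL2 1.29-fold lower (-0.37, SE 0.04, adjusted p = 2.25e-18). The 95% intervals of AXL (-1.72 to -1.58 on the log2 scale) and of LATS2 (-0.60 to -0.37) did not meet.

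ANKRD1 (ENSG00000148677, chr10:90912096-90921276, minus strand), a cardiac ankyrin repeat protein and a strong YAP target in many cells, was not detectable at this depth. It had 0 counts in each DMSO library and 3, 0 and 0 counts in the AS1842856 libraries. A count of 0 over the 3 DMSO libraries allows a level of up to 0.0537 CPM (3 counts over the group, counting error only). All 3 reads came from 1 treated library, and with both groups at or under that floor no fold change is given.

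**Figure D2:**
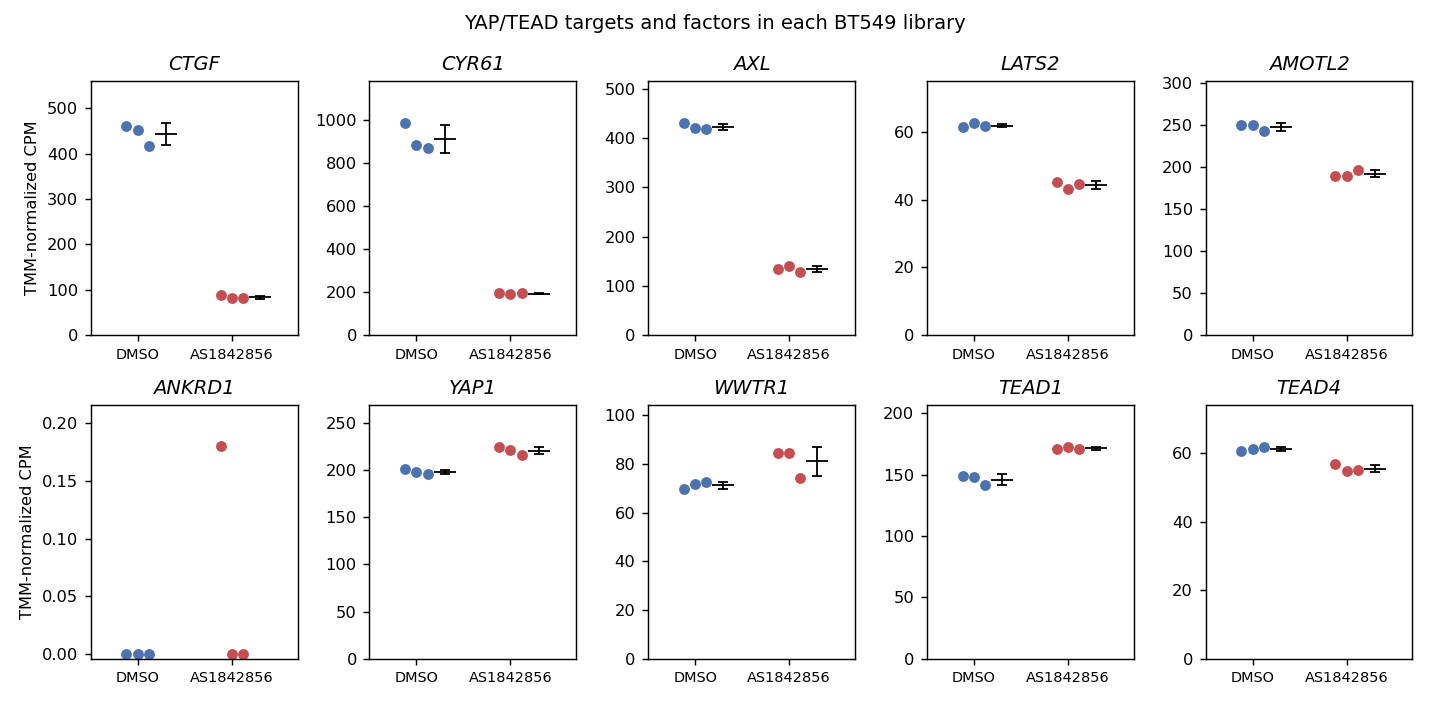
TMM-normalized CPM (y axis, starting at 0 with a separate scale per gene, and just below 0 for ANKRD1) of each of the 10 genes in the 3 DMSO (blue) and 3 AS1842856 (red) libraries, A to C from left to right, with the mean and SD in black except for ANKRD1. CTGF, CYR61 and AXL show the widest gaps, the 4 factor genes the narrowest, and ANKRD1 has reads in 1 library only.

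The genes of the coactivators rose slightly. YAP1 (ENSG00000137693, chr11:102110461-102233423, plus strand) had 201, 198 and 196 CPM in DMSO and 224, 221 and 216 CPM with AS1842856. WWTR1 (ENSG00000018408, chr3:149517235-149736714, minus strand) had 69.8, 71.8 and 72.6 CPM in DMSO and 84.4, 84.6 and 74.4 CPM with AS1842856. The groups did not overlap in either gene, but AS1842856 library C of WWTR1 lay close to the DMSO libraries. YAP1 was 1.11-fold higher (log2 fold change 0.15, SE 0.04, edgeR adjusted p = 0.000206) and WWTR1 1.14-fold higher (0.19, SE 0.05, adjusted p = 0.000579).

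The DNA-binding partners moved in opposite directions. TEAD1 (ENSG00000187079, chr11:12674591-12944483, plus strand) had 149, 148 and 141 CPM in DMSO and 171, 172 and 171 CPM with AS1842856. TEAD4 (ENSG00000197905, chr12:2959330-3040673, plus strand) had 60.6, 61.1 and 61.7 CPM in DMSO and 56.7, 54.7 and 55.0 CPM with AS1842856. Every treated library was above every DMSO library for TEAD1 and below for TEAD4. TEAD1 was 1.17-fold higher (log2 fold change 0.23, SE 0.04, edgeR adjusted p = 7.88e-08). TEAD4 was 1.10-fold lower (-0.14, SE 0.05, adjusted p = 0.0188), and this call was lost without AS1842856 library B (-0.13, adjusted p = 0.0695) and under DESeq2 (-0.14, adjusted p = 0.0692).

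Few counts were assigned to genes that overlap exons of the set. The overlap with any 1 such gene covered at most 9.97% of exon length, in YAP1. Reads dropped as shared between genes cannot be seen in these counts. Genes that overlap exons of CTGF, AMOTL2, AXL, YAP1 or WWTR1 carried at most 0.335% as many counts as the gene itself, the highest being WWTR1-AS1, and CYR61, ANKRD1, LATS2, TEAD1 and TEAD4 overlapped no exon of another gene.

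Levels of different genes were compared per length, on the deposited FPKM values. These divide by the merged exons of a gene, about 10331 bases for TEAD1 and 2284 for TEAD4. The order of genes therefore depends on these lengths, and the transcripts that BT549 uses may be shorter. In DMSO, CYR61 was the highest of the 10 genes at 369 ± 26 FPKM (SD, n = 3), followed by CTGF at 188 ± 9.93 and AXL at 81.5 ± 1.24. AMOTL2 (41.1 ± 0.733), YAP1 (31.3 ± 0.366), TEAD4 (26.7 ± 0.228), TEAD1 (14.1 ± 0.396), LATS2 (11 ± 0.0874) and WWTR1 (8.43 ± 0.163) came next, and ANKRD1 was listed at 0. No 2 neighbours in that order overlapped between libraries. With AS1842856, CYR61 was still the highest, at 78.3 ± 1.56 FPKM. CTGF, at 35.4 ± 1.67 FPKM, now overlapped YAP1, at 34.8 ± 0.654. AMOTL2 followed at 31.9 ± 0.678, and AXL, at 25.9 ± 1.2, dropped below it and overlapped TEAD4 at 24.2 ± 0.491. TEAD1 (16.6 ± 0.0968), WWTR1 (9.58 ± 0.701) and LATS2 (7.89 ± 0.207) completed the order, with WWTR1 now above LATS2. Ranked by mean FPKM among the 25015 genes listed in the FPKM tables, CYR61 moved from 58th to 489th and CTGF from 147th to 1343rd.

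**Figure D3:**
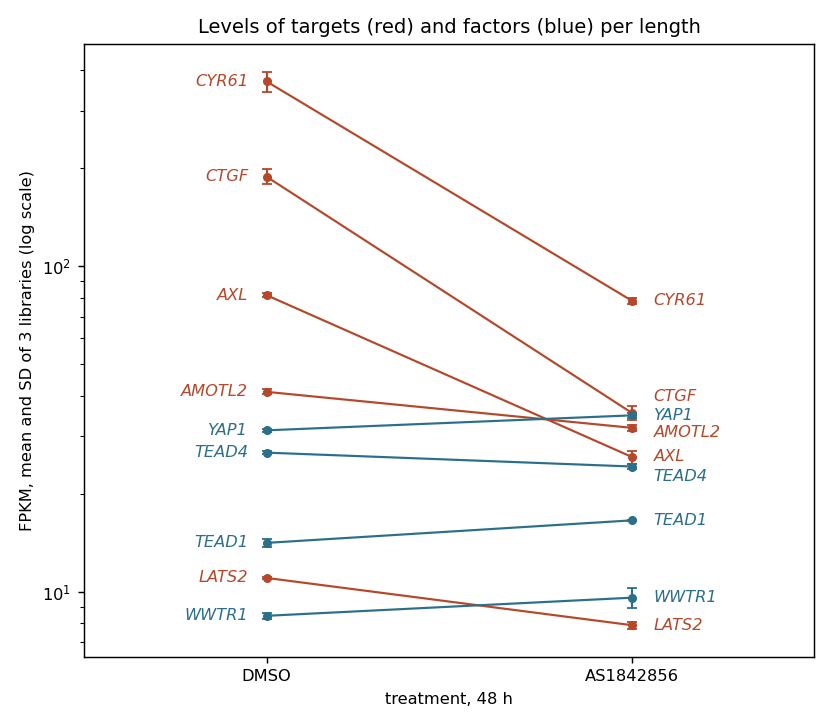
Mean FPKM with SD of 3 libraries (y axis, log scale) in DMSO and AS1842856 for the 9 genes with reads in both groups, targets in red and factors in blue. CYR61, CTGF and AXL fall steeply, CTGF to the level of YAP1 (35.4 and 34.8 FPKM), while the lines of the factors stay near level.

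Within pairs of related genes, 3 log2 ratios of FPKM were compared by an exact two-sided permutation test over libraries, whose smallest possible p with 3 against 3 libraries is 0.10, so no ratio could pass 0.05. WWTR1 over YAP1 was -1.89 ± 0.045 in DMSO and -1.86 ± 0.084 with AS1842856, overlapping between groups (difference 0.03, exact p = 0.60, adjusted 0.60). TEAD4 over TEAD1 was 0.92 ± 0.053 in DMSO and 0.55 ± 0.034 with AS1842856, with no overlap (difference -0.37, exact p = 0.10, adjusted over the 3 ratios 0.15). CYR61 over CTGF was 0.97 ± 0.070 in DMSO and 1.15 ± 0.057 with AS1842856, again without overlap (difference 0.18, exact p = 0.10, adjusted 0.15). On a linear scale, the WWTR1 level was 0.269 times that of YAP1 in DMSO and 0.275 times with AS1842856. TEAD4 went from 1.89 to 1.46 times the TEAD1 level. These factors, unlike the differences between groups, depend on the merged exon lengths. In CPM, which use no length, TEAD1 was above TEAD4, at 146 and 61.1 in DMSO and 171 and 55.4 with AS1842856. The summed level of YAP1 and WWTR1 was 39.7 ± 0.2 FPKM in DMSO and 44.4 ± 1.3 with AS1842856, whereas that of CTGF and CYR61 was 558 ± 34 and 114 ± 2.8.

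Across the whole TEAD family, the summed level overlapped between groups, as did the shares of TEAD2 and TEAD4 in it, whereas the shares of TEAD1 and TEAD3 did not overlap. The 4 TEAD genes summed to 70.9, 68.3 and 67.9 FPKM in DMSO libraries A, B and C and to 65.9, 68.2 and 68.6 FPKM with AS1842856. TEAD1 went from 20.5 ± 0.44% to 24.5 ± 0.52% of that sum, TEAD2 was at 36.7 ± 1% and 38.3 ± 1.7%, and TEAD4 was at 38.7 ± 1.2% and 35.9 ± 1.5%. TEAD3, the least expressed, went from 4.15 ± 0.24% to 1.33 ± 0.28%. The sum and the shares rest on merged exon lengths. In CPM, TEAD1 was the highest in DMSO, at 146, beside 75.9 for TEAD2, 61.1 for TEAD4 and 8.80 for TEAD3.

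**Figure D4:**
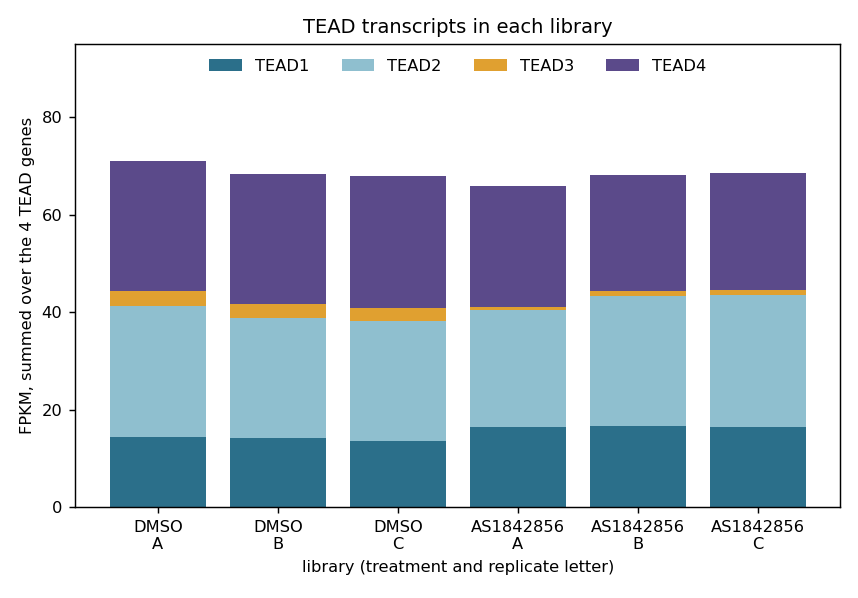
FPKM of TEAD1, TEAD2, TEAD3 and TEAD4, stacked, in each of the 3 DMSO and 3 AS1842856 libraries (x axis). The height of the bars lies between 65.9 and 70.9 FPKM in all 6 libraries, and the TEAD3 segment is thinner in each AS1842856 library.

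Among the other TEAD and VGLL genes, 1 of 5 tested rose, 2 fell and 2 were not called (median log2 fold change 0.00). VGLL proteins bind TEAD in place of YAP and TAZ. TEAD3 had 9.61, 8.33 and 8.45 CPM in DMSO and 2.04, 3.20 and 3.03 CPM with AS1842856, and VGLL3 had 44.1, 40.6 and 44.6 CPM and then 13.8, 14.4 and 15.4 CPM. Neither gene overlapped between groups. TEAD3 fell by 1.66 (SE 0.16, edgeR adjusted p = 2.36e-19) and VGLL3 fell by 1.57 (SE 0.08, adjusted p = 3.25e-52) on the log2 scale. On the log2(FPKM + 1) scale, which understates changes of low genes, both came to -1.03. VGLL4, a repressor of TEAD, had 25.6, 21.8 and 25.4 CPM in DMSO and 52.2, 49.2 and 49.6 CPM with AS1842856, a log2 fold change of 1.05 (SE 0.07, adjusted p = 6.55e-37). Its exons overlap those of ATG7 on the opposite strand over 22.1% of their length, ATG7 carried 158% as many counts as VGLL4, and whether counting used strand is not given in the sources used here, so the VGLL4 level is uncertain. ATG7 itself had a log2 fold change of -0.71. TEAD2 (0.03, SE 0.05, adjusted p = 0.621) and VGLL2 (0.00, SE 0.22, adjusted p = 0.995) were not called, and VGLL1 had 0 counts in all 6 libraries.

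Of 16 further genes widely listed as YAP/TEAD targets, all were tested, 12 fell, 2 rose and 2 (ASAP1 and NUAK2) were not called, with a median log2 fold change of -0.74. Over all genes tested, 28.4% were called lower and 27.6% higher, but this list was chosen with earlier results of these data known. The groups did not overlap for 14 of the 16, beside 59.9% of all genes tested. PTPN14, a phosphatase that binds YAP, was counted both here and among the upstream genes. GADD45A, 1 of the 12 that fell (log2 fold change -0.59, SE 0.05, edgeR adjusted p = 1.12e-24), is also named by the study as a FOXO1-induced gene lowered by AS1842856. ARHGEF17, a RhoA exchange factor, was at 66.9, 74.4 and 69.1 CPM in DMSO and at 16.7, 15.1 and 16.1 CPM with AS1842856 (log2 fold change -2.14, SE 0.07, adjusted p = 1.82e-86). IGFBP3, a secreted binding protein of insulin-like growth factors, was at 479, 489 and 450 CPM in DMSO and at 121, 116 and 114 CPM with AS1842856 (-2.01, SE 0.04, adjusted p = 3.45e-133). Both falls lay between those of CYR61 and AXL in size, and neither gene overlapped between groups. RBMS3, an RNA-binding protein gene, averaged 17.0 ± 0.616 CPM in DMSO and 6.03 ± 0.791 CPM with AS1842856 (-1.49, SE 0.12, adjusted p = 3.18e-27, and -0.53 on the log2(FPKM + 1) scale). The largest change of the list went the other way. TGFB2, a ligand of the TGF-beta receptors, had 16.6, 16.7 and 16.7 CPM in DMSO and 86.1, 91.0 and 88.2 CPM with AS1842856, a log2 fold change of 2.41 (SE 0.06, adjusted p = 7.06e-103). FJX1, a secreted regulator of planar polarity signalling, rose by 0.25 (SE 0.04, adjusted p = 1.57e-07).

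CTGF and CYR61 belong to the CCN family of matricellular proteins, whose other 4 genes had low levels in DMSO. NOV (CCN3) had 5.42, 5.93 and 4.84 CPM in DMSO and 20.7, 25.0 and 23.7 CPM with AS1842856. With AS1842856 it reached 8.60 FPKM, near WWTR1 and LATS2. It was the only one of the 4 that was tested, and it rose, opposite to CTGF and CYR61 (log2 fold change 2.11, SE 0.11, edgeR adjusted p = 1.62e-47). WISP2 had 9, 4 and 10 counts in DMSO and 0 in each AS1842856 library. Against a floor of 3 counts over the treated group, WISP2 was at least 7.86-fold lower if the DMSO counts are taken as exact. Counting error in the DMSO counts would lower that bound. WISP3 had 1 to 4 counts in every library, and WISP1 had none.

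Upstream of YAP and TAZ, the 18 kinases, scaffolds and inhibitors of the Hippo pathway split. Of the 18, all tested, 7 rose, 8 fell and 3 were not called, with a median log2 fold change of -0.10, beside 27.6% higher and 28.4% lower over all genes tested. The groups did not overlap for any of the 18, as for 59.9% of all genes tested. Of the rises, LATS1 (0.12, adjusted p = 0.0423) was called in 3 of 15 alternatives and TAOK1 (0.11, adjusted p = 0.0355) in 7 of 15, and the rises numbered 5 under DESeq2 and 4 with limma on log2(FPKM + 1) without a filter. FRMD6, a FERM domain scaffold, had the largest fall, from 129, 135 and 132 CPM to 49.5, 52.5 and 47.2 CPM (log2 fold change -1.40, SE 0.05, edgeR adjusted p = 1.45e-79). NF2 (merlin), the FERM domain protein that activates LATS at the membrane, had 205, 202 and 214 CPM in DMSO and 129, 123 and 116 CPM with AS1842856 (-0.76, SE 0.04, adjusted p = 2.49e-48). AMOT fell by 0.66 (SE 0.09, adjusted p = 7.47e-12), as its relative AMOTL2 did, whereas AMOTL1, the third angiomotin, rose by 0.41 (SE 0.05, adjusted p = 2.09e-13). The 3 angiomotin genes thus did not move together. MOB1B, an adaptor of LATS, rose by 0.46 (SE 0.05, adjusted p = 2.47e-16), and STK4, an upstream kinase, by 0.31 (SE 0.04, adjusted p = 5.98e-12). MOB1B overlaps DCK on the same strand over 2.26% of its exon length, DCK carried 88.2% as many counts, and DCK had a log2 fold change of 0.58.

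**Figure D5:**
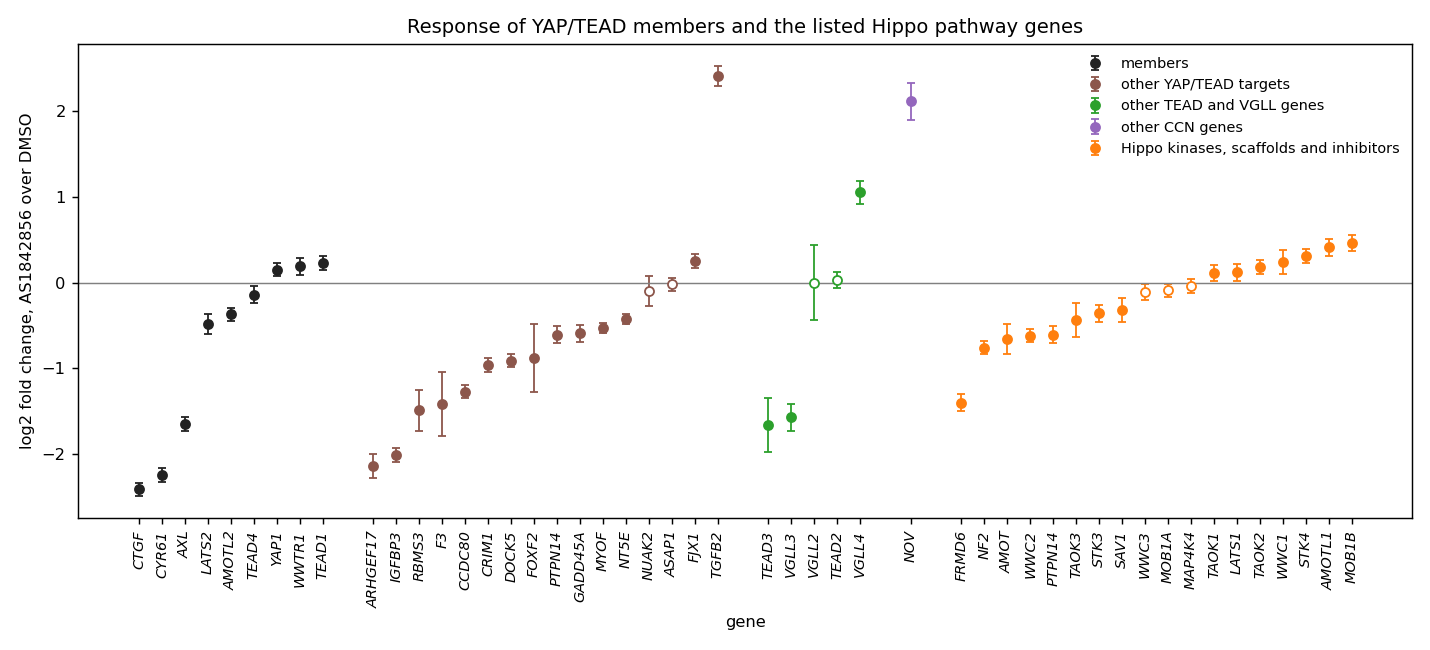
Log2 fold change of AS1842856 over DMSO (y axis, points, with normal 95% intervals from the SE) of the 9 tested genes of the set (black) and of the other targets, TEAD and VGLL genes, CCN genes and upstream Hippo genes, ordered by value within each list, with open points for genes not called at an adjusted p of 0.05 (edgeR). The targets reach from -2.41 in CTGF to 2.41 in TGFB2, whereas the upstream genes lie between -1.40 and 0.46.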

How the data were processed

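RNA was measured by RNA-seq in 3 DMSO and 3 AS1842856 libraries of BT549 cells, grouped from the labels. The authors deposited a table of raw counts for each gene without normalization and FPKM values for each library. The study's methods name STAR for mapping and DESeq2 for testing, and the submitters' processing notes name CASAVA, Bowtie 0.12.2 and GRCh38 (hg38). The counting tool, the annotation and the use of strand are not given in the sources used here. All 58735 identifiers matched GENCODE 29 (Ensembl 94), from which symbols and GRCh38 positions were taken. MKL1 and MKL2 were matched through RefSeq synonyms.

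Counts were tested across the whole table with edgeR 4.0.16 (R 4.3.3): the filterByExpr filter (minimum count 10, total 15) kept 14338 genes and 99.9% of counts, followed by TMM factors, a robust quasi-likelihood fit and Benjamini-Hochberg adjustment over all genes at 0.05. CPM values use TMM library sizes. Each SE was derived from the log2 fold change and its F statistic. FPKM values served for levels and ratios between genes only, and their implied gene lengths were 0.51% above the merged GENCODE exon lengths. Those lengths join the exons of all transcripts of a gene, and which transcripts BT549 uses was not tested. Totals of 15289500 to 22981832 counts limit precision for genes with few counts, and floors cover counting error only. The 95% intervals come from the edgeR fit, whose estimate of the spread between libraries is shared in part across genes. They use a normal multiplier of 1.96 and can be narrower than a gene's own spread over 3 libraries would give. Replicates of a group differed by more than sampling noise (chi-square per degree of freedom 2.38 to 3.28).

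The 10 genes and all lists were chosen with earlier results of these data known. Named in the text are all 10 genes, up to 3 called genes with the largest rise and fall in every other list, genes not tested, all other TEAD, VGLL and CCN genes and all markers. ASAP1, NUAK2, PTPN14, GADD45A, LATS1, TAOK1, MKL2, ACTA2 and CNN1 were named after their values were seen, as were overlapping genes. Alternatives were DESeq2 1.42.0, its size factors, library totals, other filters, a replicate block and leaving out each library. Further alternatives used limma 3.58.1 on log2(FPKM + 1) and log2(FPKM + 0.1) with a minimum mean FPKM of 0.5, and on log2(FPKM + 1) without it.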

Additional observations from a re-analysis of the deposited data

How the results depend on the processing

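No direction of a gene in the set reversed under the 15 alternatives. The count of genes called over the whole table was 8029 with edgeR, 6453 to 8030 over the 9 other settings and 7427 to 7678 with 1 library left out. Replicate letters did not pair the libraries (correlations of same-letter deviations of 0.042, -0.012 and -0.00332), and a fit with the letter as a replicate block called 7862 genes. DESeq2 called 6791 genes, 6591 of them shared with edgeR. Of the set, 8 or 9 genes were called under every setting. WWTR1 came to 0.16 (limma, adjusted p = 0.0771) on log2(FPKM + 1) with no filter, TEAD4 to -0.14 (adjusted p = 0.0692) under DESeq2, and TEAD4 to between -0.16 and -0.13 with 1 library left out. For CTGF, CYR61 and AXL, values with 1 library left out ran from -2.46 to -2.39, from -2.28 to -2.18 and from -1.68 to -1.62. The size of their adjusted p depended on the method. With limma on log2(FPKM + 1) with no filter it was largest, at 1.63e-06, 1.93e-06 and 1.95e-06 in the same order. The other CCN genes gave 2 calls in place of 1, NOV higher and WISP2 lower, under DESeq2, with no filter, and with limma on log2(FPKM + 1) with no filter. The difference of the TEAD4 over TEAD1 log2 ratio lay between -0.39 and -0.34 with 1 library left out, that of CYR61 over CTGF between 0.14 and 0.20, and that of WWTR1 over YAP1 between 0.00 and 0.08. Depth limits ANKRD1 and the WISP genes.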

Other observations

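SRF with its MRTF coactivators (MKL1 and MKL2) drives actin and contractile genes, many of which are also regulated by YAP and TEAD. Of 15 such factors and targets, all tested, 14 fell, 0 rose and 1 (MKL2, log2 fold change -0.06, SE 0.08, edgeR adjusted p = 0.519) was not called, with a median of -0.41, beside 28.4% of all genes tested called lower. The groups did not overlap for 13 of the 15, beside 59.9% of all genes tested. This list was also chosen with earlier results of these data known. The falls numbered 12 to 14 over the alternatives, and 12 under DESeq2, where ACTA2 and CNN1 lost their calls. ACTA2 (log2 fold change -0.17, adjusted p = 0.0381) overlapped between groups, was called in 7 of 15 alternatives and came to -0.05 (adjusted p = 0.644) without DMSO library A. FAS, which overlaps ACTA2 on the opposite strand, carried 100% as many counts and had a log2 fold change of 1.71. CNN1 (-0.68, adjusted p = 0.0115) also lost its call without AS1842856 library C (-0.59). TPM1, a tropomyosin of stress fibres, had 906, 861 and 929 CPM in DMSO and 277, 260 and 260 CPM with AS1842856, a log2 fold change of -1.76 (SE 0.04, adjusted p = 3.91e-128). MYL9, a regulatory light chain of myosin, went from 201 ± 5.49 CPM to 103 ± 1.46 CPM (-0.96, SE 0.04, adjusted p = 1.22e-63). TAGLN (transgelin), an actin-binding protein, went from 135 ± 6.66 CPM to 69.5 ± 4.14 CPM (-0.96, SE 0.05, adjusted p = 4.01e-55), but PCSK7 on the opposite strand overlaps 11.4% of the TAGLN exon length and carried 60.1% as many counts. GGAATG stood in a promoter window of 3 of the 10 SRF list genes with a window and of 4 of 11 further YAP/TEAD targets. It also stood in a window of 3 of 17 upstream Hippo genes and of 1 of 6 other TEAD and VGLL genes. PTPN14 was counted among both the further targets and the upstream genes. These counts are per gene, and a gene can have more than 1 window, whereas the share of 14.0% over all windows is per window.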
